A study of Mus musculus with 8 samples.

Results

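The loci described are the promoters of 9 genes of the Hippo and TEAD pathway: Yap1, Wwtr1, Tead1, Tead2, Tead3, Tead4, Lats2, Amotl2 and Ajuba. A loop was counted for a gene when one of its anchors lay within 2 kb of an annotated transcript start of that gene on mm10. This rule found 350 distinct loops of the 249200 in the series, at 18 of 30542 anchors, for 9 of the 10786 protein-coding genes with a loop at a start.

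The Hippo pathway is a chain of kinases that ends in LATS1 and LATS2, which phosphorylate the coactivators YAP (Yap1) and TAZ (Wwtr1) and keep them out of the nucleus. Unphosphorylated YAP and TAZ bind the TEAD factors, which carry the DNA-binding domain, and switch on genes for growth, adhesion and the cytoskeleton. Scaffolds at cell junctions set this balance: angiomotins such as Amotl2 hold YAP and TAZ in the cytoplasm, and the LIM protein Ajuba restrains LATS kinases. In pancreatic cancer the pathway is known for its part in tumour growth.

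Hi-ChIP records contacts between distant DNA fragments that are bound by a chosen protein. FOXA1, a forkhead factor, and HNF4G, a nuclear receptor, were precipitated in 2 mouse pancreatic cancer cell lines from the KPC model, a mouse model of pancreatic cancer. One line came from a primary tumour and the other from a matched liver metastasis (liver mets), and all 8 samples were untreated, labelled wild type for genotype and grown in DMEM with FBS. Each of the 4 groups had 2 replicates and 1 loop list that covered both, so the lists carry no spread between replicates, and each site was represented by a single cell line. The intervals given below are 95% intervals for counting error only, and loops that share an anchor are not independent. No expression was measured in these samples, so the cell type could not be checked by marker genes.

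The lists held 104136 loops for FOXA1 in tumour cells, 125623 for FOXA1 in liver mets, 76323 for HNF4G in tumour cells and 78098 for HNF4G in liver mets. Each loop has a value that was read as the −log10 of an adjusted p. On this reading many listed loops have an adjusted p above 0.05, such as those with values of 0.0889 or 0.171. A loop can thus be in all 4 lists without passing 0.05 in any of them. Loops with a value of 2 or more made up 7.21% to 9.33% of each list. Values followed the span, so many of the values are given with the percent of loops in the same list, with a span within 10% of that loop's, that had a value as high. The number of reads behind a loop is unknown.

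The DNA under the partner anchors shows what the contacts reach. Partner anchors are the far ends of loops from the 9 promoters, and for 7 of the genes the partner found in the most lists, and of those the one with the highest value in any list, is represented by a stretch of 120 bases on the plus strand of GRCm38 (mm10) without annotated exons, taken where the searched letters were densest. Capitals mark matches, on either strand, to TGTTTAC (a forkhead motif), CAAAGTCC (HNF4), TGGAATG (TEAD) or TGACTCA (AP-1). The stretch for Tead1 lay in an intron of Parva at chr7:112454039-112454158 and held a TEAD and an AP-1 match.
Tead1 partner in Parva: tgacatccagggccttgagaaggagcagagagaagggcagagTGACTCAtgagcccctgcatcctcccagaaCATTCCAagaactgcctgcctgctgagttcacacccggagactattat
The stretch for Tead4 came from the 3′ part of Tead4 itself at chr6:128224841-128224960 and held an AP-1 match.
Tead4 partner inside Tead4: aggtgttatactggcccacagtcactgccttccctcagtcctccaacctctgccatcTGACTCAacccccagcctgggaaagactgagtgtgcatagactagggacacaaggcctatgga
The stretch for Wwtr1 lay in the Tm4sf1 promoter anchor at chr3:57293979-57294098 and opened and closed with a TEAD match. The stretch for Yap1, with 1 TEAD match, lay in Arhgap42 at chr9:9146887-9147006.
Wwtr1 partner at Tm4sf1: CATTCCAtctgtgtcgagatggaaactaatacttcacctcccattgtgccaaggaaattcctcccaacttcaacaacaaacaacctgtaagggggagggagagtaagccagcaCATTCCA
Yap1 partner in Arhgap42: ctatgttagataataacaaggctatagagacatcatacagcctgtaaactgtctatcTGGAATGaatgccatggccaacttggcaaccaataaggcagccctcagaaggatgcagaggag
The stretches for Amotl2, in an intron of the non-coding gene Gm47416 at chr9:102780367-102780486, and for Lats2, in the Sap18 promoter anchor at chr14:57799254-57799373, each held an HNF4 match.
Amotl2 partner in Gm47416: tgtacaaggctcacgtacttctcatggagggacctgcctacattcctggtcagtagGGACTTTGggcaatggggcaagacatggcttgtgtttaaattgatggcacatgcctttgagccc
Lats2 partner at Sap18: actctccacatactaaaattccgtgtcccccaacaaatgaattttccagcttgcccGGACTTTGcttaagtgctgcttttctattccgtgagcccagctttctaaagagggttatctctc
The stretch for Ajuba, in the Haus4 promoter anchor at chr14:54553506-54553625, held an AP-1 match. The partner chosen for Tead2, the anchor at the Gfy and Pth2 promoters, held none of the searched letters.
Ajuba partner at Haus4: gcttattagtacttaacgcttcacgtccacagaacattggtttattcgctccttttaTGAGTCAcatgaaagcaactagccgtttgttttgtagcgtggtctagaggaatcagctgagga

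The promoter of Ajuba itself was the only one, among the RefSeq promoters matched for 7 members (Tead1 and Tead4 were not matched), with a match in the 250 bases before the start. These bases are shown in the direction of the gene, from the minus strand of chr14:54577662-54577911 (RefSeq, GRCm38.p6). They held 2 TEAD matches and 1 forkhead match. With the 50 bases after the start included, Lats2 also held 1 TEAD match. Of 32851 RefSeq promoters of 300 bases, 4.29% held a TEAD match, 3.65% a forkhead match, 5.20% an AP-1 match and 1.42% an HNF4 match.
Ajuba promoter: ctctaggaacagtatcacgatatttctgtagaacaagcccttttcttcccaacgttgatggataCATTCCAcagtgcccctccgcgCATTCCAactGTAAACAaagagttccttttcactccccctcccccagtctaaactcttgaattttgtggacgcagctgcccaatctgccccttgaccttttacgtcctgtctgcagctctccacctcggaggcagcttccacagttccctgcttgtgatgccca

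The same letters were counted over whole anchors. AP-1 letters stood in 12 of the 19 partner anchors of loops found in all 4 lists (63.2%), in 55.4% of all 249 partner anchors and in 51.3% of all anchors. TEAD letters stood in 6 of those 19 (31.6%), in 37.3% of the partners and in 35.4% of all anchors. Forkhead letters were found in 34.5% of the partners and 36.6% of all anchors, and HNF4 letters in 11.6% and 12.2%. The wider an anchor, the more letters it can hold. The 19 partners had a median width of 2856 bp, all partners 2478 bp and all anchors 2335 bp. Per kb the 19 held 0.274 AP-1 matches, below all partners at 0.302 and all anchors at 0.295. Of the 18 promoter anchors of the 9 genes themselves, 5 (27.8%) held AP-1 letters, or 0.163 per kb. Forkhead letters stood in 7 of them (38.9%), TEAD letters in 6 (33.3%) and HNF4 letters in 3 (16.7%). Their median share of G and C was 53.5%, against 48.1% for all anchors. Promoter anchors of other genes were not counted as a set, so these shares have no promoter background. The Parva anchor, 4796 bp wide, held 3 AP-1 matches, and 72.4% of anchors of a width within 10% held at least 1.

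Loop numbers differed widely among the 9 genes. Tead1 and Tead3 held most loops in every list, and Yap1, Lats2 and Tead2 were among the lowest. Tead1 had 44 loops in the FOXA1 tumour list, 47 in FOXA1 liver mets, 22 in HNF4G tumour and 24 in HNF4G liver mets. Tead3 had 41, 55, 36 and 30 loops in the same order of lists, and Tead4 had 26, 24, 20 and 17. Amotl2 had 14, 22, 11 and 15, and Ajuba had 10, 16, 8 and 13. Among protein-coding genes with a loop at a start, the median gene had 6, 7, 5 and 5 loops, and these 5 genes had more in every list. Wwtr1 had 12, 10, 4 and 5 loops, and Tead2 had 3, 7, 6 and 5. Yap1 had 2, 5, 2 and 1, below that median in every list. Lats2 had 4, 7, 1 and 2, below that median except in FOXA1 liver mets, where it was at the median.

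**Figure D1:**
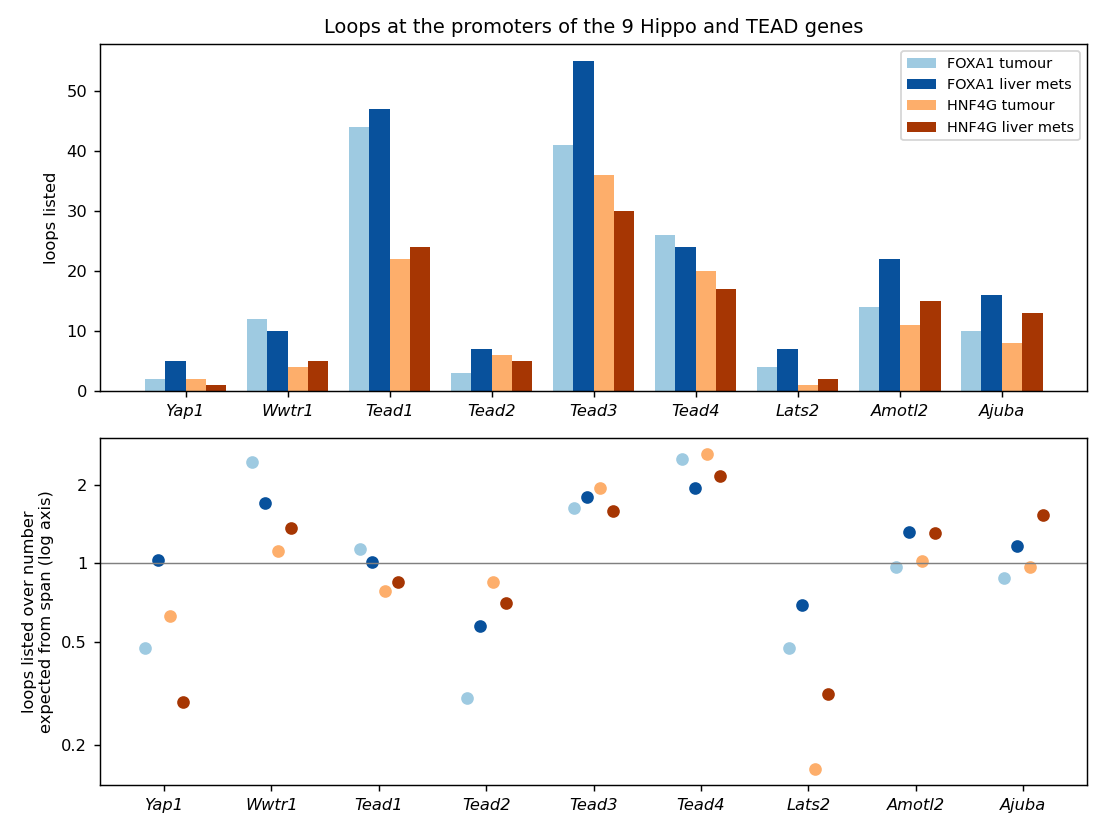
Upper panel, number of loops listed at the promoters of each gene in the 4 lists (bars from 0). Lower panel, the same number divided by the number expected from the spans of the anchor pairs each gene can form, on a log axis with a line at 1. Tead4 and Tead3 lie above 1 in all 4 lists, from 1.59 to 2.64, and Tead2 and Lats2 below 1 in all 4.

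A gene with several promoter anchors or many neighbouring anchors has more chances to be listed. Loops were therefore also set against the number expected from the share of all anchor pairs within 2000 kb that each list held at each span. Tead1, with 4 promoter anchors, was then close to the number expected, from 0.787 to 1.14 times. Tead4, with 1 promoter anchor, stood highest at 1.95 to 2.64 times, and Tead3 stood at 1.59 to 1.95 times. Wwtr1 held 2.46 times the expected number in the FOXA1 tumour list and 1.12 to 1.71 times in the others. Lats2 held 0.162 to 0.692 times, Tead2 0.303 to 0.847 times and Yap1 0.293 to 1.03 times the expected number. Together the 9 genes held 1.17 to 1.26 times the expected number. This is a description of the lists with no test. The number expected was drawn from pairs of all anchors, promoter or not, and was not computed for other promoters. Whether ratios above 1 are particular to these genes was therefore not tested. The number expected also takes no account of anchor width, and the part of width was not tested. The median anchor of the series was 2335 bp wide. The Tead4 anchor measured 6352 bp, the wider Tead3 anchor 9073 bp and the Tead2 anchor 1493 bp. The main Yap1 anchor, at a gene with few loops, measured 5417 bp.

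Together the 9 genes had 156 loops in the FOXA1 tumour list and 193 in FOXA1 liver mets, a ratio of 1.24 (0.997 to 1.54), where the whole FOXA1 lists had a ratio of 1.21. For HNF4G the numbers were 110 in tumour cells and 112 in liver mets, a ratio of 1.02 (0.776 to 1.34), the same as for the whole lists at 1.02. FOXA1 had more loops than HNF4G at these promoters in tumour cells, 1.42 times (1.1 to 1.83), and in liver mets, 1.72 times (1.36 to 2.19). Divided by list size those ratios became 1.04 and 1.07. The interval of the tumour ratio held 1 when the anchor had to overlap a start (1.18, 0.872 to 1.6), with starts of protein-coding transcripts (1.26, 0.938 to 1.69), with the gene record start (1.23, 0.886 to 1.71) and without Tead1 (1.27, 0.954 to 1.7). The interval of the FOXA1 ratio of liver mets to tumour left out 1 with overlap required (1.34, 1.03 to 1.76) and within 5 kb (1.25, 1.03 to 1.51). It also did so without Wwtr1 (1.02 to 1.59), Tead1 (1.01 to 1.68) or Tead4 (1.03 to 1.65). Divided by list size that FOXA1 ratio was 1.03 (0.826 to 1.27).

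Gene by gene, 4 of the 8 members with at least 10 FOXA1 loops in the 2 lists together had 1.5-fold or more loops in liver mets, and 0 had as many fewer. Among 6862 genes counted the same way, 25.4% were higher and 8.61% lower. The 4 were Tead2 at 2.33 (0.533 to 14), Lats2 at 1.75 (0.445 to 8.15), Ajuba at 1.6 (0.683 to 3.94) and Amotl2 at 1.57 (0.769 to 3.32), and all 4 intervals hold 1. These calls depended on the 2 kb distance. With the anchor required to overlap a start, 3 of 7 members were higher for FOXA1, against 25.4% of 6194 genes, and these were Tead2, Ajuba and Tead3, the last at 2.11 (0.910 to 5.3). Amotl2 then stood at 1.36 (0.585 to 3.28), and Lats2 had 3 FOXA1 loops left, too few to be counted. At 2 kb the members' median ratio was 1.46 against 1.17 for all genes. For HNF4G, 1 of 6 members was higher, Ajuba at 1.62 (0.624 to 4.52), and 0 were lower, against 15.6% higher and 19.4% lower among 5425 genes. The HNF4G median was 0.970 for the members and 1.00 for all genes. With overlap required, Ajuba was again higher and Tead3 was lower, at 0.647 (0.274 to 1.46). The difference of these shares from the background was not tested.

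**Figure D2:**
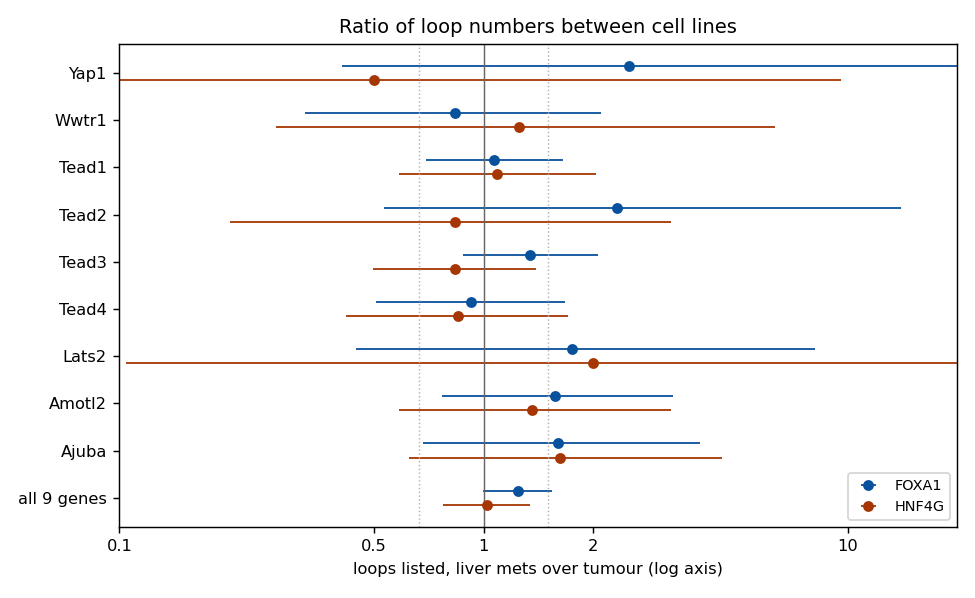
Loops listed in liver mets over tumour cells for each gene and for all 9 genes, on a log axis, with exact 95% intervals for counting error. Blue points are FOXA1 and brown points HNF4G. The dotted lines mark 1.5-fold in each direction, and bars for Yap1 and Lats2 run past the axis. The interval of every single gene holds 1.

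Among the members with at least 10 loops for each factor, Ajuba and Amotl2 had the highest pairs of ratios, except that Tead2 was higher for FOXA1 alone. Ajuba had 1.6 for FOXA1 and 1.62 for HNF4G, and Amotl2 had 1.57 and 1.36 (0.585 to 3.28). Tead1 was near 1 for both, at 1.07 (0.693 to 1.65) and 1.09 (0.586 to 2.04). Tead4 was at 0.923 (0.507 to 1.67) and 0.850 (0.418 to 1.71).

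Most member loops were in 1 list only, 208 of 350 (59.4%, 54.2 to 64.4), against 66.0% of all loops at protein-coding promoters. All 4 lists shared 24 (6.86%, 4.65 to 10.0), against 5.50%. These 24 belonged to 5 genes: 8 to Tead3, 5 to Tead4, 5 to Amotl2, 4 to Tead1 and 2 to Ajuba. Yap1, Wwtr1, Tead2 and Lats2 had no loop in all 4 lists. Tead4 had the lowest share of loops in a single list, 40% (27.0 to 54.5), and Tead2 the highest, 82.4% (59.0 to 93.8). Of the loops found in 1 list, 83 were in FOXA1 liver mets, 60 in FOXA1 tumour cells, 32 in HNF4G tumour cells and 33 in HNF4G liver mets. These are 23.7%, 17.1%, 9.14% and 9.43% of the 350 loops, against 23.5%, 17.9%, 12.8% and 11.7% of all loops at protein-coding promoters. The liver mets lists of both factors shared 17 loops that neither tumour list held, and the tumour lists shared 13 that neither liver mets list held. These are 4.86% and 3.71% of the 350, against 3.39% and 2.65% of all loops at protein-coding promoters. Of the FOXA1 liver mets loops, 31.1% were also HNF4G liver mets loops, which is 53.6% (44.4 to 62.5) of the latter. For all loops at protein-coding promoters these shares were 28.3% and 43.4%. The tumour lists of the 2 factors overlapped by 31.4% of FOXA1 and 44.5% of HNF4G loops, against 29.8% and 37.9%.

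**Figure D3:**
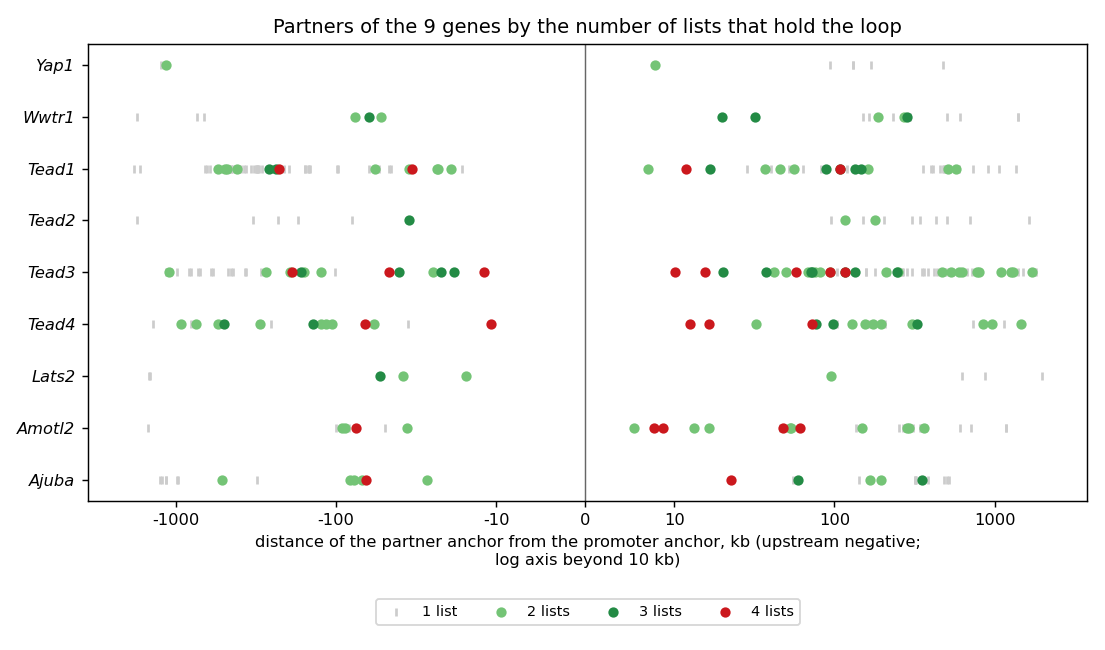
Distance of each partner anchor from the promoter anchor of each gene in kb, upstream negative, log axis beyond 10 kb. Grey ticks are loops in 1 list, light green dots 2 lists, dark green dots 3 and red dots all 4. The red dots lie within 225 kb of their promoter, and 34 of the 41 loops of 1 Mb or more are in 1 list.

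Member loops spanned from 5.46 to 1972 kb. The median span was 160 kb in FOXA1 tumour cells, 211 kb in FOXA1 liver mets, 149 kb in HNF4G tumour cells and 106 kb in HNF4G liver mets. Loops of 100 kb or more made up 60.9% (53.1 to 68.2), 65.8% (58.9 to 72.1), 60.9% (51.6 to 69.5) and 50.9% (41.8 to 60.0) of the member loops in the same order. From tumour cells to liver mets this share changed by 4.91 percentage points with FOXA1 (-5.17 to 15), and with HNF4G the change was -10 points (-22.6 to 3.01), and both intervals hold 0. All loops at protein-coding promoters went the same ways, from 61.0% to 64.5% for FOXA1 and from 59.6% to 56.0% for HNF4G. Of the 5 genes with most loops, Amotl2 had the lowest share of such loops in each list, 26.7% to 50%.

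Loops of 1 Mb or more nearly all had the same value. In each list 96.6% to 98.4% of all such loops had 1 identical value, 1.91, 1.87, 1.99 and 1.99 in the order of lists above. Of the members' 48 entries of this kind, all but 2 had that value within 0.01, and both exceptions were in FOXA1 liver mets. One joined the main Yap1 promoter to the promoter of Arhgap42, 1236 kb upstream with a value of 4.0, and 0.845% of loops of like span were as high. The other joined the wide anchor beside Tead3 to Ggnbp1 over 1288 kb with a value of 4.03, which 0.530% of loops of like span reached.

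The kind of partner differed among the genes. Over all 350 loops, 44.6% (39.5 to 49.8) ended at a promoter of another gene, and per list the share was 38.5% to 45.5%, where loops at any protein-coding promoter had 41.7% to 45.6%. Tead2 and Ajuba met almost nothing but promoters, 16 of 17 loops (94.1%, 73.0 to 99) and 26 of 30 (86.7%, 70.3 to 94.7). For Tead1 only 19 of 95 (20%, 13.2 to 29.1) ended at another gene's promoter, while 21 ended inside Tead1 and 30 inside other genes. Those 30 include 7 loops to introns of 2310014F06Rik, which also has a start within 2 kb of the first Tead1 anchor. Gene density differs between these neighbourhoods, and its part in the contrast was not tested.

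**Figure D4:**
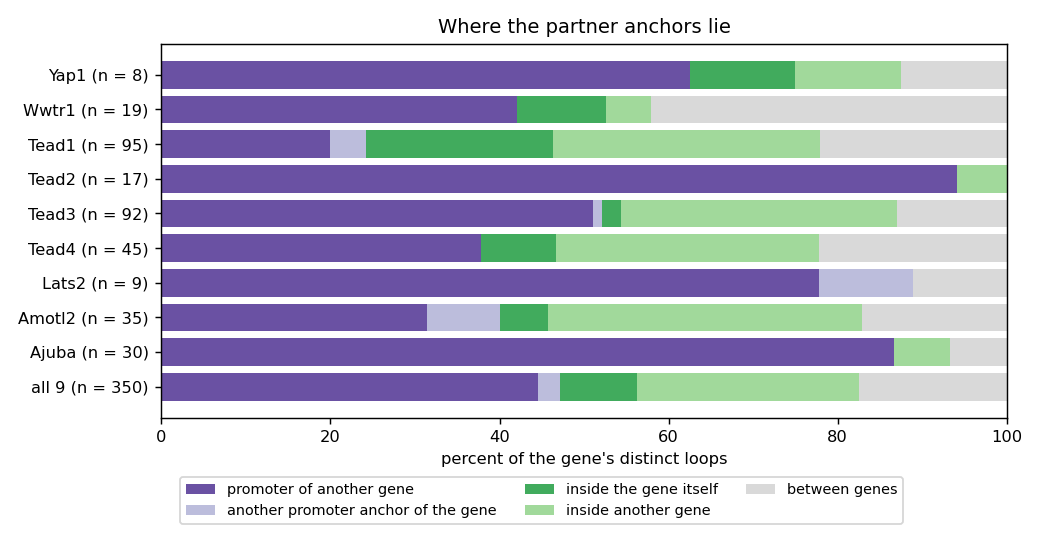
Percent of each gene's distinct loops by where the partner anchor lies, with the number of loops beside the name. Promoters of other genes (purple) take 94.1% of Tead2 loops and 20% of Tead1 loops.

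Yap1 encodes the coactivator YAP. Its 8 loops came from its main start (5 loops, chr9:8001529-8006945) and an internal start (3 loops). Birc2 and Birc3, neighbouring genes for inhibitors of apoptosis, were partners in FOXA1 liver mets. Birc2 was met from the main and the internal start with values of 1.34 and 0.996, and Birc3 from the internal start with 0.0889. As high were 56.0%, 61.0% and 98.9% of loops of like span. The main start met Birc3 in HNF4G tumour cells at 131 kb with a value of 2.58, which 11.5% of loops of like span reached. The FOXA1 tumour list held neither partner, and its farthest loop reached 477 kb downstream, near Mmp10, with a value of 1.88. Yap1 met an exon and intron anchor of Arhgap42 at 1143 kb in FOXA1 liver mets and HNF4G tumour cells, both at the common value of their list. The HNF4G liver mets list held 1 Yap1 loop, 7.82 kb long and inside the gene, which was also in FOXA1 tumour cells.

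Wwtr1 encodes TAZ. Its 19 loops came from 1 anchor, chr3:57574134-57577175. The partner with the highest value was the promoter of Tm4sf1, a tetraspanin-like surface protein, 282 kb downstream at chr3:57291872-57295687. The values were 3.27 in FOXA1 tumour cells, 3.01 in FOXA1 liver mets and 1.86 in HNF4G tumour cells, and the loop was not in HNF4G liver mets. As high were 4.67%, 13.5% and 61.6% of loops of like span. A neighbouring Tm4sf1 promoter anchor at 272 kb was listed in FOXA1 liver mets at 2.98 and in HNF4G tumour cells at 1.86, which 13.7% and 45.7% of like loops reached. In HNF4G liver mets 4 of the 5 partners lay within 75.8 kb, and the farthest was the Nbea promoter at 1392 kb. The farthest partners elsewhere lay at 1741 kb in Igsf10 and Med12l (FOXA1 tumour), at 501 kb between genes (FOXA1 liver mets) and at 734 kb between genes (HNF4G tumour).

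Tead1 encodes a TEAD factor of wide expression, and lies on chr7:112679318-112906807. Its 95 loops left 4 promoter anchors with 34, 29, 20 and 16 loops each. The intron anchor of Parva, which encodes the focal adhesion protein alpha-parvin, was met 225 kb upstream in all 4 lists, with values of 1.67 and 1.52 for FOXA1 in tumour cells and liver mets and 5.14 and 1.81 for HNF4G. In HNF4G tumour cells 2.50% of loops of like span were as high, and in the others 58.7% to 67.0%. From the second Tead1 anchor, chr7:112690002-112692623, the same Parva anchor had values of 3.1, 1.57 and 5.24 and was not in HNF4G liver mets. As high as these values were 8.45%, 51.9% and 2.23% of like loops. From both anchors the Parva contact thus had its highest value, and the lowest share of like loops as high, in HNF4G tumour cells. A value need not carry the same evidence in different lists. The Parva anchor was busy, with 15 to 24 loops in each list.

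Inside Tead1 the second anchor met an intron anchor 134 kb away with values of 3.79 in FOXA1 tumour cells, 4.73 in FOXA1 liver mets and 1.54 in HNF4G liver mets, and no entry in HNF4G tumour cells. As high were 4.69%, 3.69% and 73.6% of loops of like span. The first anchor met the same place at 146 kb with 1.39, 2.03 and 2.81 in the same lists, and 69.8%, 19.4% and 14.2% of like loops were as high. This intron contact was thus in every list except HNF4G tumour cells from either anchor. A contact at 109 kb inside the gene was in all 4 lists with values of 0.969, 0.329, 1.21 and 1.37. The remaining loops in all 4 lists were a contact at 33.7 kb with 2310014F06Rik and one of 11.8 kb between the first and second anchors, all with values of 0.460 or less. A start of 2310014F06Rik also lies within 2 kb of the first anchor, so contacts of that anchor cannot be told apart between Tead1 and 2310014F06Rik. This covers the contacts at 225 kb with Parva, at 146 kb and at 109 kb. The 33.7 kb contact cannot be told apart from one within 2310014F06Rik. Tead1 also had 16 distinct loops to anchors in or at Mical2, a redox enzyme of actin, with 7, 4, 3 and 2 in the 4 lists, and 7 to Arntl, the circadian factor BMAL1, with 3, 4, 1 and 1 (near-by anchors between genes not counted). The farthest partners lay at 1056 kb in Gm29507 (FOXA1 tumour), 1826 kb near Ctr9 (FOXA1 liver mets), 606 kb in Dkk3 (HNF4G tumour) and 1361 kb between genes (HNF4G liver mets).

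**Figure D5:**
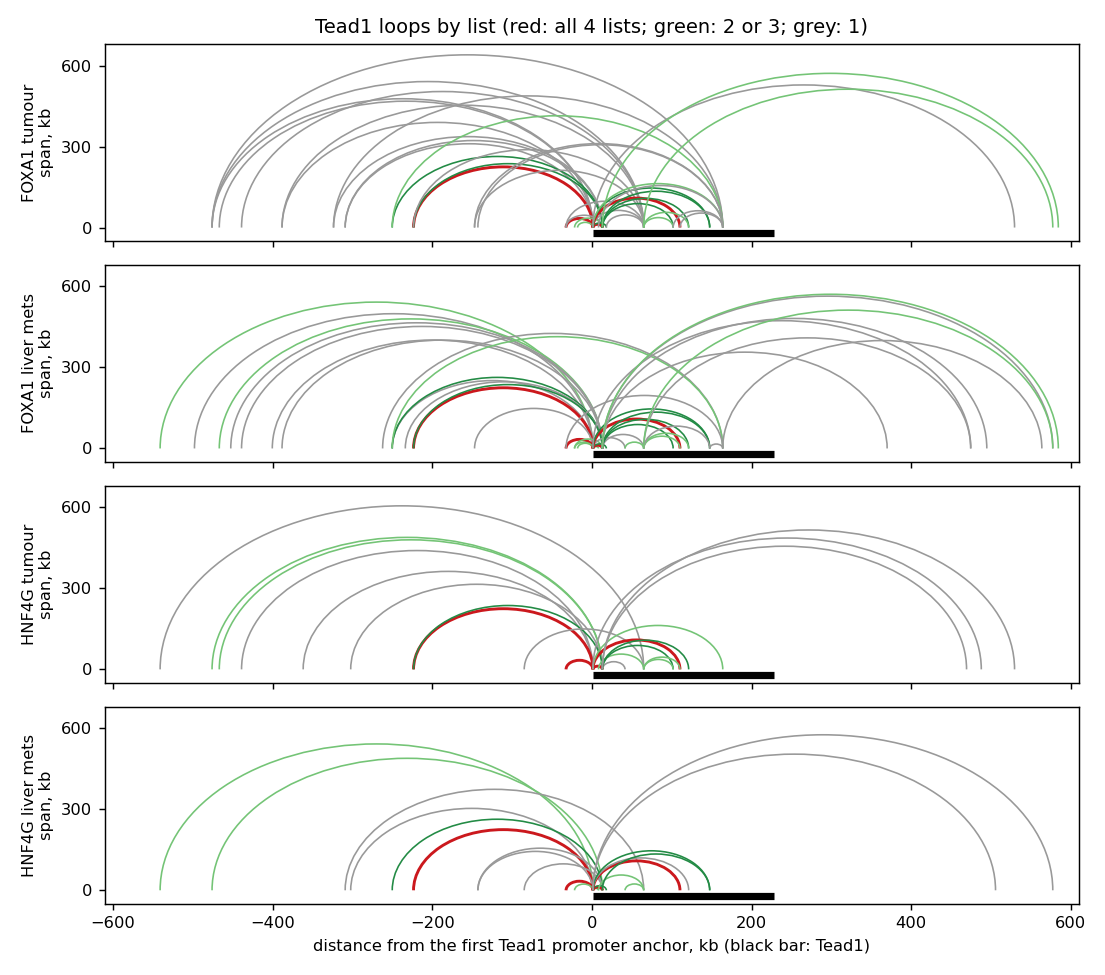
Tead1 loops in the 4 lists as arcs whose height is the span in kb, against the distance from the first Tead1 promoter anchor in kb. Red arcs are in all 4 lists, green in 2 or 3, grey in 1, and the black bar is the gene. The red arc to Parva at 225 kb recurs in each panel, and 8 loops that reach beyond 600 kb are not drawn.

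Tead2, a TEAD gene of early development, had 17 loops from 1 anchor at chr7:45215927-45217419 in a gene-dense region. Its only contact in 3 lists was that with the Gfy and Pth2 promoters at 35.0 kb, in FOXA1 tumour cells (0.123), HNF4G tumour cells (0.171) and HNF4G liver mets (0.146). The highest value, 2.81, was for the promoter of Prmt1, an arginine methyltransferase, 229 kb upstream in FOXA1 liver mets, which 14.2% of like loops reached. None of its 7 FOXA1 liver mets loops was in any other list. Of 78610 FOXA1 liver mets loops at protein-coding promoters, 37900 were in no other list, and at the 9 genes 83 of 193. The Hrc and Trpm4 promoters at 117 kb were met in both tumour lists with 1.91 and 2.30, and Snrnp70, a splicing gene, at 179 kb in both HNF4G lists with 1.67 and 1.74. The farthest partners were all promoters: Emp3 and Ccdc114 at 705 kb (FOXA1 tumour), Sphk2, Rpl18 and Fam83e at 501 kb (FOXA1 liver mets), the lactate dehydrogenase gene Ldha at 1624 kb (HNF4G tumour) and Vsig10l at 1751 kb (HNF4G liver mets).

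Tead3 encodes a TEAD factor known from placenta. Of its 92 loops, 60 left a wide anchor, chr17:28324521-28333593, that also holds the start of Rpl10a, a ribosomal protein gene, and lies 1822 bp from the nearest Tead3 start, an internal one. The anchor at the main Tead3 start, chr17:28349568-28352473, had 33 loops, with 9, 19, 17 and 11 in the 4 lists. Reads at the wide anchor cannot be told apart between Tead3 and Rpl10a. The highest value of any member loop was 6.79, for the wide anchor and the promoter of Fkbp5, a steroid receptor cochaperone, 187 kb upstream at chr17:28511481-28520299. That loop had values of 6.79 and 6.32 for FOXA1 in tumour cells and liver mets and 1.73 and 3.20 for HNF4G. As high were 0.699% and 2.12% of like FOXA1 loops, and 46.2% and 5.22% of like HNF4G loops. From the main start the Fkbp5 promoter was met at 165 kb with 3.99 in FOXA1 liver mets, 1.67 in HNF4G tumour cells and 1.72 in HNF4G liver mets, and was not in FOXA1 tumour cells. As high were 5.17%, 39.9% and 35.4% of like loops.

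Ppard, the gene of the nuclear receptor PPAR delta, was met by 12 distinct Tead3 loops, 9 in each FOXA1 list and 6 in each HNF4G list. Its promoter was listed in all 4 lists from the main Tead3 start at 116 kb (1.14, 0.731, 2.35 and 1.48) and from the wide anchor at 94.4 kb (0.321, 0.404, 2.82 and 2.00) and 57.5 kb (0.417, 0.763, 1.74 and 1.99). The values were higher in the HNF4G lists for each of these 3 contacts, and at 57.5 kb 2.28% and 1.55% of like HNF4G loops were as high against 17.8% and 10.6% of like FOXA1 loops. At 94.4 kb these shares were 4.58% and 12.6% for HNF4G against 62.3% and 15.9% for FOXA1. At 116 kb they were 11.2% and 47.0% against 57.7% and 57.7%, so the 2 factors stood closer in liver mets at these 2 contacts. Fance, a Fanconi anaemia gene, was met at 15.6 kb in all 4 lists with 0.691, 0.959, 0.455 and 0.862. An anchor within Tead3 was met in all 4 lists from both sides, at 11.9 kb from the wide anchor (0.301, 3.50, 0.435 and 1.31) and at 10.1 kb from the main start (0.279, 0.0726, 0.171 and 0.742). The last contact in all 4 lists reached an anchor 9562 bp from Tulp1, at 46.7 kb with 0.123, 1.87, 0.550 and 0.502. In FOXA1 liver mets 4.46% and 3.93% of like loops were as high as the 11.9 kb and 46.7 kb contacts. The farthest partners were Dusp1 at 1818 kb (FOXA1 tumour) and at 1788 kb (HNF4G tumour), Ergic1 at 1716 kb (FOXA1 liver mets) and a promoter of AC163629.2 at 1131 kb (HNF4G liver mets).

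Tead4 encodes the TEAD factor needed for trophectoderm. Its 45 loops left 1 anchor, chr6:128295204-128301555, to 45 different partners. Of its contacts in all 4 lists, the one with the highest value ran 72.3 kb to the 3′ part of the gene at chr6:128223553-128228646, with values of 3.38, 1.87, 1.14 and 1.57. Few loops of like span were as high: 0.411%, 3.11%, 5.28% and 3.07% in the 4 lists. Closer intron anchors were met in all 4 lists at 16.4 kb (1.66, 0.803, 0.921 and 1.84) and 12.5 kb (1.57, 1.29, 1.99 and 0.144), and an upstream anchor at 10.8 kb (0.119, 0.172, 0.164 and 0.138). The promoter shared by Foxm1, a cell cycle factor, and Rhno1 was met at 65.6 kb in all 4 lists, with 0.123 in FOXA1 tumour cells and 1.87, 1.75 and 1.64 in the others. In FOXA1 tumour cells every like loop was as high, and in the other lists 3.14%, 2.31% and 1.88% were. The promoter of Fkbp4, a second FKBP cochaperone, was met at 139 kb with 1.87 in FOXA1 liver mets, 4.33 in HNF4G tumour cells and 1.59 in HNF4G liver mets, and was not in FOXA1 tumour cells. As high were 28.2%, 3.90% and 59.1% of like loops. Tspan9, a tetraspanin gene, was met by 7 distinct loops, 2, 4, 5 and 2 in the lists. Its intron at 326 kb had 3.18 in FOXA1 liver mets, 1.90 in HNF4G tumour cells and 3.59 in HNF4G liver mets, which 9.48%, 57.3% and 3.27% of like loops reached. The farthest partners were Ndufa9 at 1450 kb (FOXA1 tumour and HNF4G liver mets), Klrc1 at 1381 kb (FOXA1 liver mets) and 9330179D12Rik at 1143 kb (HNF4G tumour).

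Lats2 encodes the kinase that phosphorylates YAP and TAZ. Its 9 loops had no value above 1.91. The Sap18 promoter, 53.2 kb upstream of the main start, was met in FOXA1 liver mets (0.0889), HNF4G tumour cells (0.171) and HNF4G liver mets (0.146), and 86.9% to 100% of like loops were as high. An anchor beside an upstream start met Sap18 at 37.9 kb in FOXA1 tumour cells (0.396) and FOXA1 liver mets (0.0889), so Sap18 was a partner in all 4 lists through one anchor or the other. Xpo4, an exportin gene, was met at 95.3 kb in both FOXA1 lists with 0.417 and 0.0934. The farthest partners were Ripk3 at 1972 kb (FOXA1 tumour) and Rcbtb1 at 1440 kb (FOXA1 liver mets), and in the HNF4G lists none lay beyond Sap18.

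Amotl2 encodes an angiomotin that binds YAP. Its 35 loops left 3 anchors. The leading contact was with an intron of Gm47416 at chr9:102777282-102780512, 60.9 kb downstream, with 1.46 and 1.67 for FOXA1 in tumour cells and liver mets and 2.43 and 0.496 for HNF4G. As high were 3.07%, 4.30%, 0.789% and 14.4% of like loops, so the value was lowest for its span in HNF4G liver mets. The third anchor met the same place in all 4 lists at 47.7 kb with 0.396, 0.999, 0.975 and 0.146. The other contacts in all 4 lists were an anchor 14041 bp from Anapc13 at 74.5 kb (0.455, 0.0889, 0.171 and 0.146), one within the gene at 8.77 kb (0.230, 0.0812, 0.318 and 0.362) and one between the first and second anchors at 7.74 kb (0.267, 0.0798, 0.150 and 0.356).

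Amotl2 differed most between the lines in its loops to Slco2a1, the prostaglandin transporter gene. These numbered 1 in FOXA1 tumour cells, 6 in FOXA1 liver mets, 1 in HNF4G tumour cells and 3 in HNF4G liver mets. The highest value of the gene, 3.27, was for an anchor in Slco2a1 at 360 kb in FOXA1 liver mets, which 8.09% of like loops reached, and the same loop had 1.93 in HNF4G liver mets. These loops share 3 promoter anchors and few partners and are not independent. Slco2a1 was singled out here as the partner gene of Amotl2 with the largest change. How often other promoters have a partner gene with such a change was not counted. The farthest partners were Gm24338 at 1495 kb (FOXA1 tumour), Gm29154 at 1174 kb (FOXA1 liver mets), Slco2a1 at 283 kb (HNF4G tumour) and Topbp1 at 607 kb (HNF4G liver mets).

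Ajuba encodes a LIM protein of junctions. Its 30 loops left 2 anchors, with 22 from chr14:54574997-54578578 at the main start. The Haus4 promoter at 22.6 kb (0.307, 0.579, 0.169 and 0.146) and the promoter of Acin1 and Cdh24 at 64.9 kb (0.123, 0.0889, 0.171 and 0.146) were met in all 4 lists, the latter at values that 93.0% to 100% of like loops reached. The highest value was for Trac, the constant region of the T cell receptor alpha chain, 352 kb downstream, with 1.75 in FOXA1 liver mets, 3.63 in HNF4G tumour cells and 1.94 in HNF4G liver mets and no entry in FOXA1 tumour cells. In HNF4G tumour cells 2.54% of like loops were as high. The farthest partners were Nfatc4 at 1247 kb (FOXA1 tumour), Ripk3 at 1212 kb (FOXA1 liver mets), Pck2 at 964 kb (HNF4G tumour) and the promoter of Thtpa and Zfhx2 at 516 kb (HNF4G liver mets). All partners in both tumour lists were promoters of other genes.

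Of 46 other genes of the pathway, 35 (76.1%) had a loop at a start, against 49.2% of 21924 annotated protein-coding genes. Of 25 with enough FOXA1 loops, 5 (20%) had 1.5-fold or more in liver mets and 1 (4%) as many fewer, where all genes had 25.4% and 8.61%. Of 24 for HNF4G, 3 (12.5%) had more and 4 (16.7%) fewer, where all genes had 15.6% and 19.4%. Among upstream kinases and adaptors 10 of 13 genes had loops, led by Taok3 (11, 20, 14 and 12 in the 4 lists), Wwc1 (14, 13, 8 and 11) and Mob1a (14, 9, 13 and 8), with Lats1, Mob1b and Nf2 at 0. Among junction and polarity regulators 8 of 10 had loops, led by Ptpn14 (16, 15, 13 and 12), Amotl1 (15, 15, 8 and 10) and Fat1 (13, 12, 11 and 7). Of the Vestigial-like cofactors, which compete with YAP and TAZ for TEAD factors, Vgll4 alone had loops, 61, 89, 45 and 50, more than any of the 9 genes in each list. Among YAP and TAZ targets 17 of 20 had loops, led by the tissue factor gene F3 (26, 26, 24 and 20), the kinase gene Nuak2 (17, 37, 17 and 22) and Foxf2 (23, 25, 17 and 20).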

How the data were processed

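FOXA1 and HNF4G Hi-ChIP loops were analysed in KPC tumour and liver mets cells, with 2 replicates in each of 4 groups taken from the sample titles. Per the study's methods and the submitters' processing notes, reads were mapped to mm10 (GRCm38) with HiC-Pro 3.1.0 at default settings, with DpnII fragments and duplicates removed, and loops were called with hichipper. The anchor source and the minimum of paired reads were not given in the sources used here. The authors deposited 1 list per group, with both replicates pooled. The value of each loop, deposited by the authors with no heading, was read as the −log10 of an adjusted p because of its tied values and its maximum of 20. That reading rests on the values alone, and a value need not carry the same evidence in different lists. The display score deposited by the authors follows from it and was not used further.

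Starts came from GENCODE M21. Loops were matched between lists by identical anchors, spans were measured between anchor midpoints, and long loops were those of 100 kb or more. Ratios have exact (Clopper-Pearson) intervals given the sum, shares Wilson intervals and differences Newcombe intervals, all at 95% and for counting error only. No test between groups was possible with 1 list per group. Genes counted for the 1.5-fold rule had 10 or more loops in both lists of a factor together. All 9 members were described, each with every partner in all 4 lists, its partner of highest value and its farthest partner in each list, and other partners were named after their values were seen. The pathway genes named are the 3 with most loops in each list of genes. The members and lists were chosen with earlier results of these data known. Motifs were searched on both strands of GRCm38 anchors and RefSeq promoters. Scripts (Python 3.11.15, pandas 2.3.3, scipy 1.17.1, statsmodels 0.14.6) were tested on simulated data. Alternatives covered start distance, start type, value, span, list size, matching, long-loop limit and each gene left out. The stretch chosen for Tead3 is not reported here.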

Additional observations from a re-analysis of the deposited data

Results flagged for a closer look

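Among the members with at least 10 loops for each factor, 2 genes went in opposite directions between the cell lines for the 2 factors. This was not tested with 1 list per group. Tead2 had 2.33 times as many FOXA1 loops in liver mets as in tumour cells and 0.833 times as many HNF4G loops. Tead3 had 1.34 times as many FOXA1 loops and 0.833 times as many HNF4G loops. The intervals of all 4 ratios hold 1. The Tead3 ratios include the wide anchor that also holds the Rpl10a start. At the anchor of the main Tead3 start alone they were 2.11 (0.910 to 5.3) for FOXA1 and 0.647 (0.274 to 1.46) for HNF4G, both past 1.5-fold.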

How the results depend on the processing

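Of 110 alternative values of the 8 main results, 101 stayed within the interval of the main value, 9 moved out of it and 0 reversed. At a value of 2 or more, the FOXA1 ratio of liver mets to tumour was 2.20, the FOXA1 over HNF4G ratio was 1.00 in tumour cells and 2.75 in liver mets, 0 loops (0%) were in all 4 lists and 80.5% were in 1 list. That minimum left at most 22 member loops in a list. Divided by list size, the FOXA1 over HNF4G ratios were 1.04 and 1.07. With anchors widened by 5 kb before matching, 27.7% of loops were in all 4 lists and 33.1% in 1. Requiring the anchor to overlap a start took Tead3 to 9, 19, 17 and 11 loops and Tead1 in FOXA1 tumour cells to 25. The calls per gene at this setting, chosen after seeing the data, ended those of Amotl2 and Lats2 for FOXA1 and added Tead3 for both factors. An alternative chosen after seeing the data, without the wide Rpl10a anchor, gave ratios of 1.27 for FOXA1 and 1.02 for HNF4G. No paired analysis was possible because the lists pool the replicates, and for the same reason no replicate could be left out. The number of reads per loop is unknown, so a loop missing from a list was not listed at this depth and is not shown to be absent.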
